A study of Homo sapiens with 4 samples.

Results

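Imprinted genes are expressed from 1 parental copy, and the genes described here are 38 that are widely listed as imprinted in human. They were chosen by name, with earlier results of these data known. Their promoters were taken as the sequence within 1000 bp of the canonical transcript start in GENCODE 44 lifted to hg19. They are among 38583 protein-coding and lncRNA genes treated in the same way. The data come from MBD-seq, in which a GST-MBD2 protein captures DNA fragments through their methylated CpGs and the captured fragments are sequenced. HEK293, an established human embryonic kidney cell line, was profiled in 4 conditions with 1 library each: untreated cells, and cells that received the SunTag-bound DNMT3A-DNMT3L fusion Ab-3A3L as wild type (WT), K844E or R887E. The WT cells had been transfected with 6 µg of a dCas9 plasmid carrying 10 SunTag repeats (dCS), 3 µg of Ab-3A3L plasmid and 500 ng of a plasmid for the ISG15 sgRNA, and cells positive for all 3 fluorescent markers were sorted after 3 days. The list of new peaks of the WT library, 12864 regions that the authors' comparison with untreated cells gave as gained, is the source of every value below. The untreated, K844E and R887E libraries were not analysed here. With 1 library there is no replicate spread and no test of a difference, and intervals cover counting error only.

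At an imprinted locus the copies inherited from the mother and the father carry different DNA methylation. At germline control regions the mark is set in the egg or the sperm, survives the loss of methylation that follows fertilization and is then kept through cell division. KCNQ1OT1, SNRPN, MEST, PEG3 and their like start inside such regions, with the maternal copy methylated and silent and the paternal copy active. Secondary marks, such as those at the H19, MEG3 and NDN promoters, arise later in the embryo under the direction of a control region elsewhere in the cluster. ZFP57, a zinc finger protein, binds the methylated hexamer TGCCGC in control regions and recruits the machinery that keeps the mark. From textbook knowledge, the 38 genes were put in 4 classes: 15 in a germline class, known for a germline-methylated promoter, 5 with a secondary methylated promoter, 6 whose own promoter is unmethylated while a control region lies inside or beside the gene, and 12 with none of these at their promoter.

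The sequences below show what kinds of CpG-rich DNA were compared, because the loci with several starts hold both. Each is 120 bases of hg19, written 5′ to 3′ on the strand of the gene, with every CpG in capitals. The windows lie upstream of a start, around the summit of a peak or at the centre of an island, and were shifted by at most 173 bases to keep them off annotated untranslated regions. The first 3 are from germline-methylated promoters without a new peak. SNRPN, a small nuclear ribonucleoprotein subunit at the Prader-Willi locus, holds 8 CpGs in the window chr15:25199962-25200081 on the plus strand. PLAGL1, a zinc finger protein, holds 14 at chr6:144329568-144329687 on the minus strand. GRB10, an adaptor of insulin and growth factor receptors, holds 7 at chr7:50850594-50850713 on the minus strand.
SNRPN start: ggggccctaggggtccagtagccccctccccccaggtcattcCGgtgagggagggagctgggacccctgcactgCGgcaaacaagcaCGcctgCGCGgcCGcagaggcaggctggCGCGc
PLAGL1 start: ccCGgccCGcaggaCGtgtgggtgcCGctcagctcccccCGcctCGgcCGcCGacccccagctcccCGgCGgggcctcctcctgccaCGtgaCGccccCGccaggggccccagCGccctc
GRB10 start: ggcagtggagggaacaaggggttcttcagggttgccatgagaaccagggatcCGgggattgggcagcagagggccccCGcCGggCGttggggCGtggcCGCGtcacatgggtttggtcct

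The next pair shows the other starts of PLAGL1 and GRB10, which did carry a new peak. They lie at chr6:144385187-144385306 and chr7:50861160-50861279, both on the minus strand, and hold 15 CpGs each. Of the GRB10 window, 84 bases are inside the peak.
PLAGL1 upstream peak: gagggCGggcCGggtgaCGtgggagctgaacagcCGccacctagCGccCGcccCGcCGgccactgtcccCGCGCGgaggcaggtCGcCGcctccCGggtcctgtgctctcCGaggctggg
GRB10 upstream peak: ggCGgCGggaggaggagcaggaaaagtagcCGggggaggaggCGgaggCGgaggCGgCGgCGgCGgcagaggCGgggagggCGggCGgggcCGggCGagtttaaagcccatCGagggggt

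The last 4 show promoters with a peak whose gene has a control region further inside or beside it, with the inner island of INPP5F for comparison. IGF2R, the receptor that clears IGF2, had its peak window at chr6:160390515-160390634 with 18 CpGs. INPP5F, a phosphatase, had its peak window at chr10:121485775-121485894 with 14 CpGs, and its inner island is shown at chr10:121577897-121578016 with 10. GNAS, the alpha subunit of the stimulatory G protein, had its peak window at chr20:57465614-57465733 with 16 CpGs. The GNAS summit was at -802 bp from the canonical start, and its peak also lies over a maternally methylated stretch described below. This window is therefore not set apart from a control region. All 4 are on the plus strand.
IGF2R peak: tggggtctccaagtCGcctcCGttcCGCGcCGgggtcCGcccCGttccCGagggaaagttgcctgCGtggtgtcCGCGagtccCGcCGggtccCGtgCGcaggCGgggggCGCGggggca
INPP5F peak: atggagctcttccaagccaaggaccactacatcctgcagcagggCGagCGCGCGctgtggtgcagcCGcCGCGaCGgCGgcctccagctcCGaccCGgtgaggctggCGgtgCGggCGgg
INPP5F internal island: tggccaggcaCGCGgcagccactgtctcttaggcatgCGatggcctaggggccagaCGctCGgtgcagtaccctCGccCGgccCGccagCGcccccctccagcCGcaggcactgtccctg
GNAS peak: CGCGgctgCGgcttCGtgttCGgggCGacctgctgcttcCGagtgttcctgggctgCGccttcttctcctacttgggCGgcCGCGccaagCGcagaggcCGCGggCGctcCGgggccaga

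New peaks lay at 12 of the 38 promoters (31.6%, 95% exact binomial interval 17.5 to 48.7), beside 28.6% of all protein-coding and lncRNA promoters. The members as a whole were therefore close to the share of all promoters. They were richer in CpGs, with a median of 129.5 against 62, and 34 of the 38 held a CpG island. A new peak was present at 54.8% of all promoters with a CpG island and at 42.1% of protein-coding promoters. The classes differed from one another. Of the 15 canonical promoters in the germline class, 1 had a new peak (6.67%, 0.169 to 31.9), and of the other 23 promoters 11 did (47.8%, 26.8 to 69.4). The 1 was that of L3MBTL1, whose canonical promoter is not the island described as methylated, and the other 14 had none. The intervals of these shares overlap between 26.8% and 31.9%, and no p-value is given because genes of 1 library are not replicates. Of the 5 genes in the class with a secondary methylated promoter, 0 had a peak at the canonical start, which allows a share of up to 60%. For H19 and MEG3 this window was away from the islands that hold other annotated starts. An H19 island with 2 starts begins 7529 bp downstream of the canonical start, and a MEG3 island with 13 begins 46297 bp downstream. Neither island had a peak. Peaks were at 4 of 6 promoters of genes with an inner or neighbouring control region, and at 7 of 12 promoters of the remaining class.

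Some promoters of the germline class are counted more than once by gene. PEG3 and ZIM2, both zinc finger genes, have the same start, PLAGL1 and the non-coding HYMAI start 3 bp apart, and PEG10 and SGCE start 237 bp apart in opposite directions. With 1 gene per shared promoter, 1 of 12 had a peak (8.33%, 0.211 to 38.5). The class is less certain for L3MBTL1, GRB10 and ZIM2. Without them, 0 of 12 had a peak, which allows a share of up to 25%. This leaves out the only gene of the class with a peak, and the classes were set with earlier results of these data known. The 0 of 12 is therefore not an independent check. These 12 genes still include PLAGL1 with HYMAI and PEG10 with SGCE. The list does not tell a promoter that stayed unmethylated from one already methylated in untreated cells, so for every promoter without a peak these states cannot be told apart.

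New peaks followed the number of CpGs across all promoters, and this was compared class by class. Of all promoters, a peak was present at 25.7% of those with 50 to 99 CpGs, at 65.0% with 100 to 149 and at 78.8% with 150 to 199. The 15 promoters of the germline class held a median of 127 CpGs (72 to 181), against 134 (21 to 254) in the other 23. In that range of 72 to 181 CpGs, 57.2% of all promoters had a new peak, and among promoters with a CpG island 54.8% did. With 100 to 149 CpGs, 1 of 11 promoters of the germline class had a peak, again that of L3MBTL1, against 2 of 4 other members. With 150 to 199 CpGs, KCNQ1OT1 had none and 5 of 7 others did. Those of the class with 50 to 99 CpGs, SNRPN, DIRAS3 and NAP1L5, had none, nor did the 6 other members of that size.

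**Figure D1:**
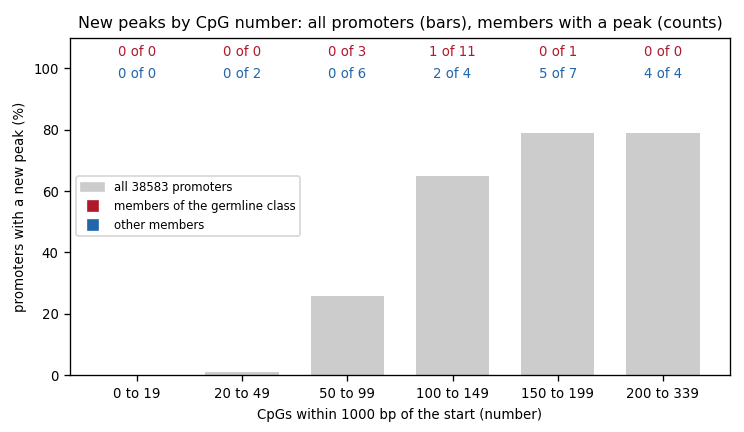
Share of all 38583 promoters with a new peak (bars, y axis, %) by the number of CpGs within 1000 bp of the start (x axis), with the members that had a peak of those in the class written above (germline class in red, other members in blue). The share rises to 65.0% with 100 to 149 CpGs, where 1 of 11 promoters of the germline class, that of L3MBTL1, had a peak.

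The promoters without a peak in the germline class belong to genes of varied roles. KCNQ1OT1 (181 CpGs) silences its neighbours in cis from the paternal copy. MEST (144), a hydrolase-like protein, PEG3 (110) and the retrotransposon-derived PEG10 (126) are expressed from the father's copy and act in growth and placenta. SGCE (125) encodes a sarcoglycan, NNAT (130) a small proteolipid of neural tissue, DIRAS3 (72) a small GTPase that restrains growth, NAP1L5 (73) a nucleosome assembly family protein and FAM50B (127) a nuclear protein. PLAGL1 and HYMAI share 144 CpGs and GRB10 has 148.

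The ZFP57 hexamer was counted on both strands of each window, as TGCCGC or its complement GCGGCA. It was present in 13 of the 15 promoters of the germline class, in 18 of the other 23, and in 46.0% of all promoters (71.3% of those with 72 to 181 CpGs). The number per promoter differed more than its presence. The median was 6 in the germline class and 2 in the other members, against 1 in all promoters of that CpG range. GRB10 held 8, NAP1L5 held 7, KCNQ1OT1, MEST, PEG3 with ZIM2 and PLAGL1 with HYMAI held 6, and NNAT held 5. Thus 9 of the 15 genes held at least 5, a number reached by 2.88% of the promoters in the CpG range and by none of the other members. PEG10 and SGCE held 0. Across all promoters of the range, the share with a new peak rose with the hexamer count, from 51.0% of those with 0 to 57.8% with 1 or 2, 64.9% with 3 or 4 and 68.6% of the 462 with at least 5. Of the 9 genes of the germline class with at least 5, 0 had a peak. These are fewer than 9 distinct promoters, because PEG3 with ZIM2 and PLAGL1 with HYMAI are counted by gene. The hexamer contains a CpG, and its presence in a window does not show that the protein was bound.

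The 1 germline-class gene with a peak was L3MBTL1, which encodes a chromatin-binding protein of the malignant brain tumour family. Its peak at chr20:42136271-42136665 had its summit 152 bp downstream of the canonical start, with 53 CpGs and a fold enrichment of 3.42. The fold corresponds to 30 fragments at the summit over a background rate of 8.08, and it was higher than 8.94% of all folds in the list. The island that textbooks describe as methylated on the maternal copy belongs to a start further inside this gene. Islands of 18 and 35 CpGs, 6222 to 7254 bp downstream of the canonical start and with 1 annotated start each, had no listed peak. The promoter counted for L3MBTL1 is therefore a different island from the one described as methylated.

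Loci with several CpG islands allowed islands of 1 gene to be set side by side. At PLAGL1 the island at the canonical start (118 CpGs, 6 hexamers) had no peak, while the island of an upstream start (117 CpGs, 2 hexamers) held a peak of 7.07-fold, with 16 fragments over a rate of 1.40. At GRB10 the germline-methylated island (131 CpGs, 8 hexamers) had none, while that of an upstream start (196 CpGs, 4 hexamers) held a peak of 9.19-fold, with 14 fragments over a rate of 0.632. The nearest edges of these peaks lay 55438 and 10335 bp from the canonical starts. PLAGL1 and GRB10 were the only members with a peak in the gene and none at the canonical promoter.

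The same arrangement, with a peak at the promoter and none at the inner island, was seen in IGF2R, INPP5F and TRAPPC9, whose control region is internal. KCNQ1 and BLCAP, of the same class, did not show it, and GNAS is described below. IGF2R had a peak of 11.2-fold in the island of its start (148 CpGs, 17 fragments over a rate of 0.611), and none at the intronic island (99 CpGs) beside the start of the antisense AIRN. INPP5F had peaks of 5.36-fold and 5.55-fold in its first island (125 CpGs), and none at the inner island (84 CpGs) of its imprinted short isoform. TRAPPC9, a subunit of a vesicle trafficking complex, had a peak of 10.2-fold at its start (79 CpGs), and none at the island of 210 CpGs and 13 hexamers where the non-coding PEG13 begins. KCNQ1, a potassium channel subunit, had no peak at its own island of 172 CpGs or at that of KCNQ1OT1, also 172. BLCAP had none at its start (55 CpGs) or at the NNAT island inside it (120 CpGs). MEST had none at either of its islands (66 and 184 CpGs).

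GNAS had the highest fold among the members, 14.6, higher than 94.6% of the folds in the list. The peak at chr20:57464430-57466547 spanned 2118 bp and 250 CpGs in an island of 499 CpGs, with 29 fragments over a rate of 1.05. It reached from -2046 to 71 bp relative to the canonical start, that of the G protein subunit itself, and 4 of the 59 annotated starts of the gene were inside it. The stretch just upstream of that start also holds exon A/B, whose promoter is methylated on the maternal copy in textbook accounts. The peak lies over both, and the peak list does not separate them. The islands of 177 and 190 CpGs further upstream, in the region of the NESP55 and XLαs starts, had no peak.

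The other promoters with a peak included both growth promoters and growth inhibitors of the 11p15 clusters. IGF2, the paternally expressed growth factor, had promoter peaks of 6.33-fold (24 fragments over 2.95) and 5.46-fold (31 over 4.86), the second also in the promoter of IGF2-AS. CDKN1C, a maternally expressed inhibitor of cyclin-dependent kinases, had one of 6.58-fold (33 over 4.16). PHLDA2, a restraint on placental growth, had one of 4.52-fold (26 over 4.97). In the same region the canonical promoters of H19 (47 CpGs), SLC22A18 (79), KCNQ1 (180) and KCNQ1OT1 (181) had none. Thus 3 of the 7 members of 11p15 had a peak, and these had the 3 highest CpG numbers there, 204 to 236. Of all promoters with 200 or more CpGs 78.9% had a peak, so 3 of 3 is near the background for that size.

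UBE3A, the ubiquitin ligase expressed from the maternal copy in neurons, had a promoter peak of 9.31-fold (14 fragments over 0.611). The other members of its region, SNRPN, NDN, MAGEL2 and MKRN3, had none. ZDBF2, a zinc finger gene, had one of 8.07-fold (12 over 0.611). Low folds were found at TP73, a transcription factor of the p53 family (3.11, 30 fragments over 8.95), and at WT1, a zinc finger regulator of kidney development (2.70, 31 over 10.8), whose peak also lay in the WT1-AS promoter. Imprinting of TP73 and WT1 is among the less certain entries of the list. In the remaining class COPG2 (129 CpGs), DLK1 (160), RTL1 (67), DDC (21) and SLC22A18 had no peak.

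The 14 peaks at member promoters had a median fold of 5.94 (2.70 to 14.6), against 8.07 over the 9368 peaks at all promoters, and 9 of the 14 were below that value. This did not come with fewer fragments. The median was 25 fragments at the summit, against 17 at all promoter peaks, over a median background rate of 2.96 against 0.755. The fold is the number of fragments plus 1 over the rate plus 1. GNAS, IGF2R, TRAPPC9 and UBE3A were above the median of all promoter peaks, with rates of 0.611 to 1.05, and ZDBF2 was at it.

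**Figure D2:**
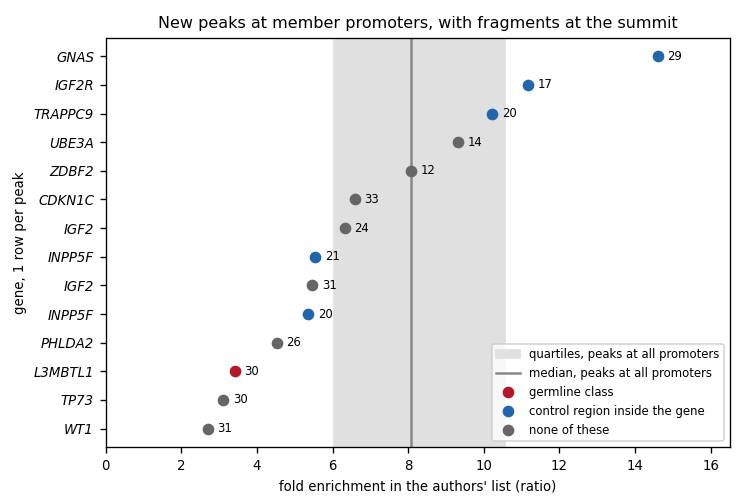
Fold enrichment as listed by the authors (x axis, ratio) for the 14 new peaks at member promoters (y axis, 1 row per peak), coloured by class, with the fragments at the summit beside each point. The grey band and line are the quartiles (6.03 to 10.6) and median (8.07) of peaks at all promoters, and 9 of the 14 points lie to the left of the line.

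Inside the gene spans, 14 of the 38 members had a new peak, beside 30.4% of all gene spans. With their promoter windows included, these members held 23 peaks, 22 of them in a gene span and 1 just before the INPP5F gene. Of the 23 peaks, 14 were at canonical promoters, 4 near another annotated start and 5 elsewhere in the gene. Besides PLAGL1 and GRB10, IGF2 (4.49-fold) and CDKN1C (3.74-fold) had a peak near another start. A CpG island overlapped 19 of the 23, with 9.65 to 16.1 CpGs per 100 bp. The 4 others were intronic peaks of INPP5F (2.68-fold), TP73 (3.97 and 5.47) and TRAPPC9 (5.18), with 4.13 to 5.66 CpGs per 100 bp. The fifth peak away from a start, in IGF2 and the intron of IGF2-AS (7.42-fold), lay in an island of 66 CpGs. Without the promoter windows, 7 members had a peak in the gene. The 30.4% of all gene spans includes promoter sequence inside genes, so it is not a background for this count.

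Within 5000 bp of the members lay 109 CpG islands, of which 15 overlapped a new peak (13.8%, 7.91 to 21.7), beside 19.6% of all islands. Of the 28 with at least 100 CpGs, 13 did (46.4%, 27.5 to 66.1), beside 65.4% of all islands of that size. Control regions were also counted as the windows around the canonical start of a transcript linked to each. Of 18 such windows, 2 overlapped a peak, those of L3MBTL1 and of WT1-AS, beside 28.6% of all promoters and 57.2% of those with 72 to 181 CpGs. The L3MBTL1 window is that of its canonical start, and the inner islands of the gene had no peak. The peak in the WT1-AS window is the 2.70-fold one already counted at the WT1 promoter. WT1 was put in the class with no methylated promoter and no inner control region, so this window also holds a promoter of that class. GNAS exon A/B, over which the GNAS peak lies, was not among the 18, where GNAS-AS1 stood for that locus. AIRN, PEG13, GNAS-AS1 and GPR1-AS had none within 1000 bp of their starts. The window of AIRN held 12 CpGs and did not reach the intronic island of IGF2R, which had no peak either. For H19 and MEG3, whose control regions lie upstream of their main starts, the whole annotated gene was searched, and no peak lay in either.

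Members without a promoter peak often lay far from any peak. The 14 such germline-methylated promoters were a median of 145598 bp from the nearest new peak, from 10335 bp at GRB10 to 483195 bp at SNRPN. All promoters without a peak were a median of 76590 bp away, and those in the same CpG range 50956 bp. Several clusters fell in long stretches without a peak. SNRPN lay in one of 1568436 bp that ended at the UBE3A peak, and MKRN3, MAGEL2 and NDN in one of 905912 bp, of which 50000 bases are unknown in hg19. The stretch from DLK1 to RTL1, with MEG3 between them, was 942133 bp long and held 23 gene starts and 22 CpG islands. Those of MEST with COPG2, of PEG3 with ZIM2 and of KCNQ1 with KCNQ1OT1 were 825949, 623649 and 571728 bp, the first with 100000 unknown bases. Gaps over 500 kb made up 10.1% of all gaps between neighbouring peaks, whose median was 74425 bp. A stretch picked because it contains a gene is more likely to be a long one, so these lengths are a description.

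Other transcripts of imprinted clusters were read from a list of 36, of which 10 had a promoter peak (27.8%, 14.2 to 45.2), close to the 28.6% of all promoters. The peaks of IGF2-AS and WT1-AS are among those already counted at IGF2 and WT1, and SNURF has the same start as SNRPN. The list is therefore not fully separate from the members. The highest folds were at HM13 (12.5), a signal peptide peptidase, and PPP1R9A (11.8), a cytoskeletal scaffold beside PEG10. RB1, the retinoblastoma gene whose control region is in an intron, had a peak of 7.45-fold at its main promoter. Of 16 genes that set or keep imprints, 6 had a promoter peak (37.5%, 15.2 to 64.6), and the interval includes the 28.6% of all promoters and the 42.1% of protein-coding promoters. They were CTCF (14.9-fold), the insulator protein of the H19 control region, SMCHD1 (9.40), ZNF445 (6.83), DNMT3A (5.73), TRIM28 (5.60) and UHRF1 (4.10). ZFP57, DNMT1 and DNMT3L were among the 10 without one. The peaks say nothing of expression.

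What a missing peak means was limited by the background rate. Where the rate was under 1, the listed peak with the fewest fragments had 6, and at rates of 4 to 8 it had 14, and at 8 to 16 it had 22. The background rate at promoters without a peak is not in the list, so the fewest fragments that would have been called there is not known.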

How the data were processed

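The MBD-seq list of the WT library was analysed. According to the methods, reads of 150 bp, single-end, were mapped to hg19 with Bowtie2 under default settings. The submitters' processing notes also name FastQC, deepTools and MACS2, and versions and peak settings are not given in the sources used here. The deposited list has 10 columns in the MACS2 narrow peak layout. The score deposited with each peak entered no result. The fold deposited by the authors is the ratio of fragments plus 1 to the background rate plus 1 at the summit, by the form that met the listed values. Their p-value and q-value were deposited as −log10, and the smallest −log10 q was 2.00. Total reads per library were not used here.

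Peaks were joined to GENCODE 44 lifted to GRCh37, with at least 1 bp of overlap, for genes whose canonical transcript is in that annotation. CpG islands were rebuilt from sequence without repeat masking (CpG scored 17, other bases -1, at least 200 bp, 50% GC, observed to expected above 0.6). Fragments and background rate were solved from each fold with its Poisson p-value, and the listed −log10 p was met within 0.000403. Shares have 95% exact binomial intervals, and a share of 0 has an upper limit of 3 counts of the total. Every member is accounted for, and those with a peak or a germline-methylated promoter are described with values. The members, classes and other lists were chosen with earlier results of these data known, and the classes rest on textbook knowledge, not on methylation measured in these cells. The stretch used for H19 and MEG3 was settled after the data had been seen. GPR1-AS was matched as CMKLR2-AS through RefSeq synonyms. Some sequences are not reported here. Steps were tested on simulated data. Scripts ran under samtools 1.23.1, pysam 0.24.0, matplotlib 3.10.9, numba 0.67.0, scipy 1.17.1, pandas 2.3.3, numpy 2.4.6 and Python 3.11.15.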

Additional observations from a re-analysis of the deposited data

How the results depend on the processing

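Of 46 alternatives over 8 results, 28 left the count within a small factor of its value, or the median fold within the spread of the member peaks, and 18 did not. With peaks of −log10 q of at least 10, peaks lay at 6 of the 38 member promoters, 0 of the 15 in the germline class and 6 of the 23 others. They lay in 8 gene spans, 8 islands of member loci and 0 control regions, and at 6549 of all 38583 promoters. The median fold at member promoters was then 9.31. With folds of at least the median of the list the numbers, in the same order and over the same totals, were 5, 0, 5, 6, 6, 0 and 6795. The median fold of peaks at member promoters was then 10.2. No share of all gene spans or of all islands is given at these cut-offs, so those counts have no background beside them. With the start of any annotated transcript, 3 genes of the germline class had a peak, the added ones at the upstream starts of PLAGL1 and GRB10. None of these 3 genes had its peak at the island described as germline-methylated. At canonical starts and without the less certain entries, 0 of 12 genes of the class had one. Without the promoter window, 7 members had a peak in the gene, a count with no share of all genes beside it. The other alternatives were an overlap of at least 100 bp, windows of 500 and 2000 bp, stricter islands, gene spans without flanks, protein-coding genes or island promoters as background, and the other members without the secondary class. In each of these settings the germline class had the lower share where it was counted. No paired analysis was possible because there was 1 library per condition. The analysis rests on 1 library and on thin counts, with a median of 18 fragments at the summit of a listed peak.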
